A study of Aspergillus fumigatus with 12 samples.

Results

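Of the 10276 genes in the FPKM table of this fungus, 100 formed the module described here, genes whose transcripts were lower in cultures with sinapic acid and little changed by the dye Ponceau 2R alone. FPKM divides the fragments of a gene by its length and by the size of the library. Members were chosen on measured values. The mean over the 12 libraries had to lie from 5 to under 1000 FPKM, and group means were taken on log2(FPKM + 1). The SA mean then had to be at least 0.8 log2 units below the CK mean (a difference of -0.8 or lower). The P2R+SA mean had to be as far below the P2R mean, and P2R and CK had to differ by less than 0.4. All 12 libraries entered this choice, so the differences SA vs CK, P2R+SA vs P2R and P2R vs CK are given as a description.

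White-rot fungi such as Trametes secrete laccases and peroxidases, oxidative enzymes that break down lignin and also act on many synthetic dyes. Sinapic acid is a hydroxycinnamic acid of plant cell walls and is related to the syringyl units of lignin. Laccases oxidise it, and small phenolics of this kind can carry electrons between the enzyme and a dye. Ponceau 2R is a red azo dye. The series asks how sinapic acid acts on the fungus while it decolorizes this dye.

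RNA came from mycelium of strain X-13 in 4 groups of 3 libraries. CK was basic medium, P2R was that medium with Ponceau 2R, SA was the medium with sinapic acid, and P2R+SA held both compounds. Whether the 3 libraries of a group stem from separate cultures is not stated, and the p-values then cover only the variation among them, which could be technical. The series title names Trametes hirsuta, whereas the organism field of the samples gives Aspergillus fumigatus. The deposited tables pair no ID with a name, and 0 of the 10276 IDs matched the 10086 genes of the Aspergillus fumigatus table used (assembly ASM265v1). Members are therefore given by ID, with no function and no position.

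The sampling time bears on the definition of the module. According to the series design, mycelium of every group was taken at 48 h. The column headers of the single-library files carry the number 36 for CK and P2R and 48 for SA and P2R+SA, and the P2R+SA headers hold a further 4. No source used here says what these numbers are. Every difference between cultures with and without sinapic acid in this report also sets 48 against 36. If the number is a time in hours, the fall of these genes lies as much between times as between media, and these cannot be told apart. P2R+SA vs SA lies within the number 48, but the further 4 is in the P2R+SA headers alone, so whatever it marks and the dye cannot be told apart there. The further 4 also enters P2R+SA vs P2R, P2R+SA vs CK and the interaction, and what it marks cannot be separated from them either.

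The module took a small share of the RNA, and a smaller one with sinapic acid. Its 100 genes drew 1.37% ± 0.0887 of all fragments in CK and 1.33% ± 0.0637 in P2R (SD, n = 3 each). They drew 0.522% ± 0.0856 in SA and 0.475% ± 0.104 in P2R+SA (SD, n = 3 each). In single libraries this was 1.26% to 1.47% without sinapic acid and 0.384% to 0.6% with it. The ranges lay far apart, which the rule favours, since it chose members on these libraries. The libraries held 35919373 to 39408704 fragments in genes. In RNA of whole mycelium, fewer hyphae that use a gene and less RNA per hypha cannot be told apart.

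Members spanned a wide range of expression. Their mean level in CK ran from 6.13 to 1298 FPKM, with a median of 53.1 FPKM. In SA the members ran from 1.11 to 401 FPKM, with a median of 19.6 FPKM. The median member kept 39.2% of its CK level in SA, and 77 of the 100 kept under 50%. With the dye present the picture was close: the median member kept 37.2% of its P2R level in P2R+SA, and 84 members kept under 50%. The member that kept least was at 3.53% in SA and another at 6.02% in P2R+SA, while those that kept most stood at 59.6% and 57.0%. The member at 6.02% was at a mean of 0.583 FPKM in P2R+SA, on only 8 to 18 fragments per library.

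**Figure D1:**
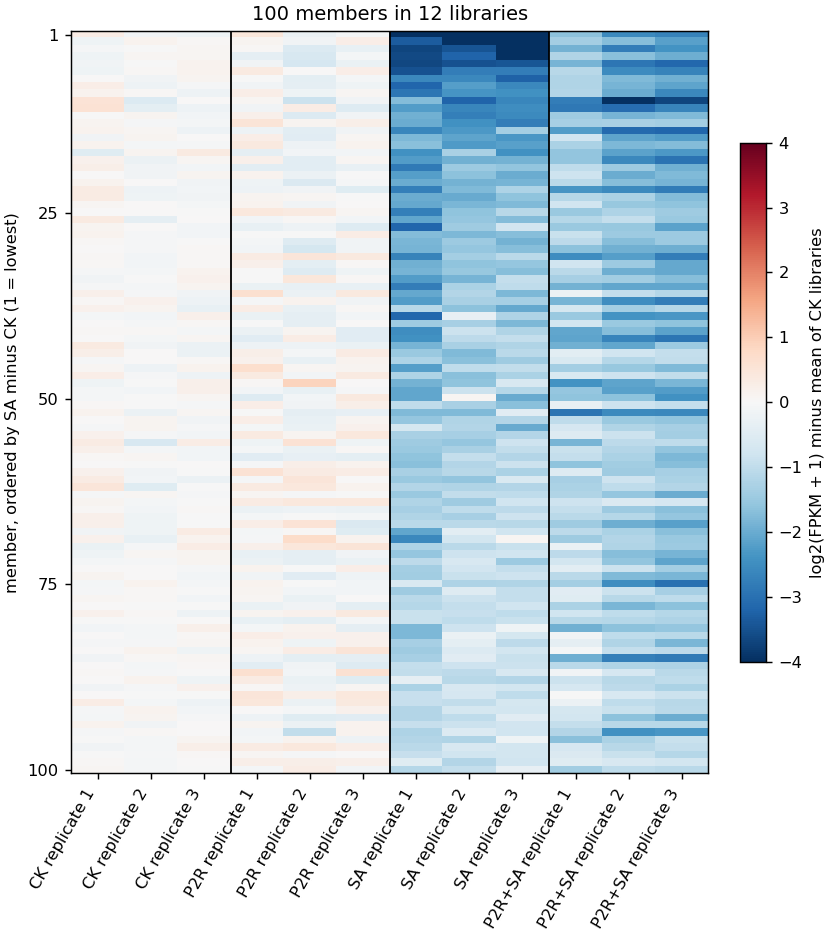
Each row is 1 of the 100 members, ordered by SA minus CK, and each column is 1 of the 12 libraries. Colour gives log2(FPKM + 1) minus the mean of the 3 CK libraries and is capped at -4 and 4. The CK and P2R columns are pale throughout, and the SA and P2R+SA columns are blue in nearly all rows, with the deepest blue in the first rows of SA.

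On the log2 scale, the median member lay at -1.33 in SA vs CK, from -4.73 to -0.80, where all 9240 tested genes had a median of -0.037. In P2R+SA vs P2R the members' median was -1.36, from -3.19 to -0.81, beside -0.032 for all tested genes. In P2R vs CK it was -0.03, with 55 members below 0 and 45 above, beside -0.091 for all, and it turned to 0.06 after median-of-ratios scaling. All 100 members passed the filter on low values of the limma fit. In that fit, 92 members were called lower in SA vs CK, where the share of all genes called lower was 9.84%. In P2R+SA vs P2R it called 98 members, against 11.3% of all genes. In P2R+SA vs CK, where the members' median was -1.42, it called 95 members lower, against 24.7% of all genes. The rule used these contrasts, and nothing is read from these counts. In P2R vs CK, where 28.6% of all genes were called, 1 member passed, A03611, at -0.36 log2 units (limma adjusted p = 0.0497), named because it stood alone. Every SA library lay below every CK library in 98 members, against 24.2% of all tested genes. Every P2R+SA library lay below every P2R library in 100, against 20.5%, and below every CK library in 98, against 32.1%. For the dye alone, every P2R library lay below every CK library in 16 members, against 36.3% of all tested genes, and the reverse held in 9, against 23.9%. The rule chose members on the same libraries, which favours these orders, and nothing is read from them either.

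The member with the lowest SA value relative to CK was A10771, a gene with a coding length of 234 bp. Its CK libraries stood at 443, 328 and 324 FPKM and its P2R libraries at 489.9, 308 and 339 FPKM. The SA libraries stood at 12.6, 9.93 and 16.1 FPKM, and the P2R+SA libraries at 114, 61.5 and 55.4 FPKM. All 3 SA libraries were thus far below all others, and the P2R+SA libraries lay between SA and the cultures without sinapic acid with no overlap. The mean was 28.4-fold lower in SA than in CK and 4.92-fold lower in P2R+SA than in P2R. The SA values rest on 86 to 141 fragments per library.

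A09304, with 642 bp the next lowest by the same measure, had the same order of groups. Its libraries read 77.6, 94.6 and 88.6 FPKM in CK and 94.4, 78.3 and 105 FPKM in P2R. They read 7.81, 3.96 and 3.99 FPKM in SA and 33.1, 26.0 and 18.5 FPKM in P2R+SA. CK and P2R overlapped, SA was lowest in all 3 libraries, and P2R+SA stood apart from each of the other groups. Its mean was 16.6-fold lower in SA than in CK and 3.59-fold lower in P2R+SA than in P2R.

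The most abundant members in CK were A06948 and A09256. A06948 (582 bp) read 1524, 1176 and 1194 FPKM in CK and 969, 959.9 and 1045 FPKM in P2R. It read 182, 466 and 427 FPKM in SA and 632, 474 and 342 FPKM in P2R+SA. SA and P2R+SA overlapped, and SA replicate 1 was well below the other SA libraries. A09256 (678 bp) was at 895 ± 48.4 FPKM in CK and 902 ± 46.9 FPKM in P2R (SD, n = 3 each). With sinapic acid it was at 401 ± 72.6 FPKM (SA) and 306 ± 79.2 FPKM (P2R+SA; SD, n = 3 each). Its CK and P2R libraries, at 862 to 954 FPKM, all lay above its libraries with sinapic acid, at 226 to 447 FPKM.

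**Figure D2:**
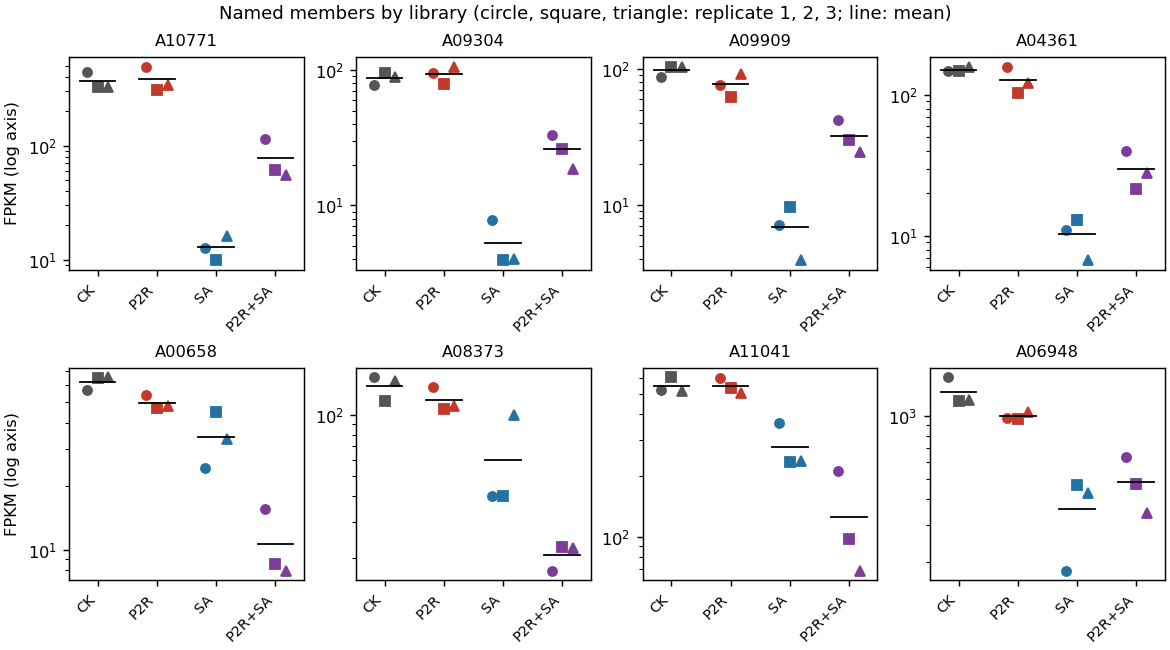
FPKM on a log axis for 8 members in the 4 groups, with 1 symbol per library (circle, square and triangle for replicates 1, 2 and 3) and a line at the group mean. In A10771, A09304, A09909 and A04361 the 3 SA libraries are the lowest, while in A00658, A08373 and A11041 the 3 P2R+SA libraries are the lowest.

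The module was a minority of the genes that were low with sinapic acid. Of 7216 genes in the mean range, 431 lay at -0.8 or lower in SA vs CK. In 139 of them P2R and CK differed by less than 0.4, and 100 of these also met the limit in P2R+SA vs P2R. The other 39 had differences of -0.79 to 0.61 in P2R+SA vs P2R, with a median of -0.58, and 4 of them lay above 0. Of 273 genes that met both sinapic acid limits, 173 were left out for the dye difference, 121 with P2R below CK and 52 with P2R above it. The limits cut through a continuum. The nearest values inside and outside were -0.804 and -0.779 for SA vs CK, -0.808 and -0.786 for P2R+SA vs P2R, and 0.395 and 0.401 for the size of P2R vs CK. With the same limits and signs turned, the rule gave 58 genes, called raised by sinapic acid only, fewer than the 100 members.

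**Figure D3:**
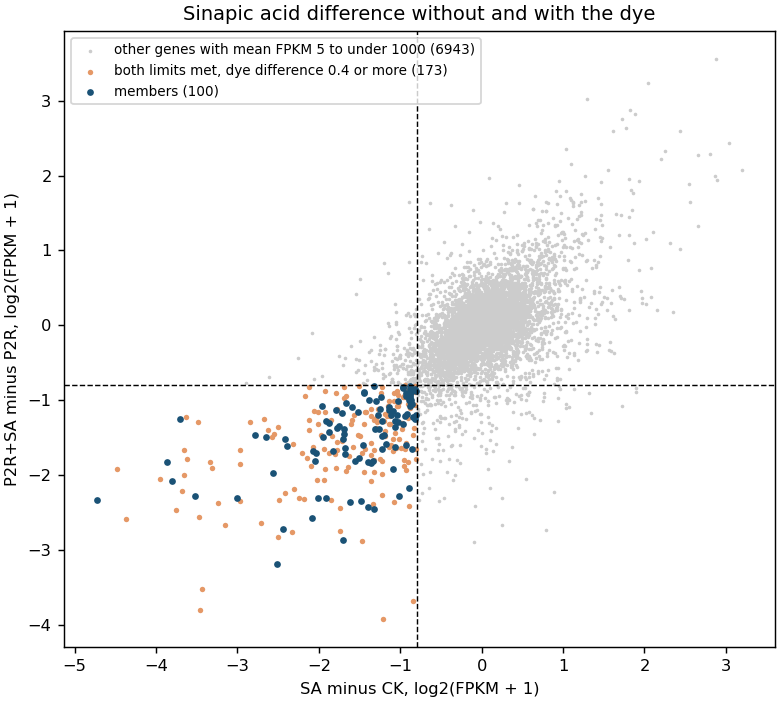
Each point is 1 of 7216 genes with a mean of 5 to under 1000 FPKM, with SA minus CK on the horizontal axis and P2R+SA minus P2R on the vertical axis, both in log2(FPKM + 1). Dashed lines mark the limits of -0.8. The 100 members (dark blue) lie among 173 genes that met both limits but had a dye difference of 0.4 or more (orange).

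The libraries of a group did not show the fall equally. The median member lay at -1.67, -1.27 and -1.15 log2 units from the CK mean in SA replicates 1, 2 and 3. In P2R+SA replicates 1, 2 and 3 it lay at -1.11, -1.48 and -1.68. SA replicate 1 was the lowest of its group for 62 members, whereas it was the lowest for 27.0% of all tested genes. P2R+SA replicate 1 was the highest of its group for 82 members, against 59.8% of all tested genes. The 3 libraries of the group were all at -0.8 or lower against the CK mean in 67 members for SA, and against the P2R mean in 65 members for P2R+SA.

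The spread between replicates was wide where sinapic acid was present. The median SD of a member was 0.35 log2 units in SA and 0.37 in P2R+SA, whereas it was 0.13 in CK and 0.19 in P2R (n = 3 each). All tested genes had median SDs of 0.22 and 0.21 with sinapic acid and of 0.10 and 0.13 without it, in the same order. Spearman correlations between replicates over all 10276 genes were 0.9956 to 0.9965 in CK and 0.9927 to 0.9962 in P2R. They were 0.9744 to 0.9829 in SA and 0.9816 to 0.9957 in P2R+SA, a range that reaches into those of CK and P2R. With replicate 1 of both SA and P2R+SA left out, the members' median moved to -1.14 in SA vs CK and to -1.54 in P2R+SA vs P2R. The limit of -0.8 was then still met by 83 members in SA vs CK and by 100 in P2R+SA vs P2R.

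**Figure D4:**
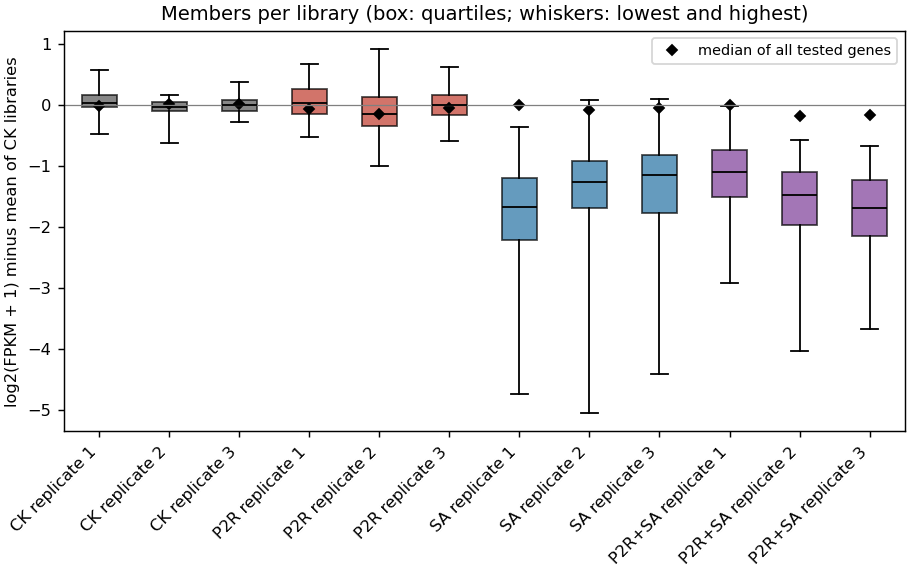
Boxes give the quartiles and median of the 100 members in each library, as log2(FPKM + 1) minus the mean of the 3 CK libraries, and whiskers reach the lowest and highest member. Diamonds are medians of the 9240 tested genes and lie at -0.18 to 0.02. Member medians are -1.67 to -1.15 in SA and -1.68 to -1.11 in P2R+SA.

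The dye's effect within sinapic acid cultures (P2R+SA vs SA) had no limit of its own in the rule, but it is made of the same libraries. The rule asked for low values in SA, which favours a positive difference, and for low values in P2R+SA, which favours a negative one. The part of this choice in the results below was not tested. The median member lay at 0.02 log2 units, beside -0.059 for all tested genes, with 51 members above 0 and 49 below. SA was the lowest of the 4 groups in those 51 members and P2R+SA in the other 49. In 49 members the groups differed by less than 0.4, in 10 P2R+SA was higher by at least 0.8, and in 6 it was lower by at least 0.8. How many of all tested genes met these limits was not counted, and nothing is read from these numbers.

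In the limma fit over all genes and 12 libraries, 10 members changed in P2R+SA vs SA, against 6.04% of all genes. Of these, 6 were higher in P2R+SA, against 2.88% of all genes, and 4 were lower, against 3.16%. At an unadjusted p under 0.05 the numbers were 22 higher, against 9.45% of all genes, and 18 lower, against 15.0%. After median-of-ratios scaling 15 were higher and 4 lower, where 6.71% of all genes were called, and after quantile normalization 14 and 4, where 6.60% were. Every SA library lay below every P2R+SA library in 18 members, against 8.04% of all genes, and the reverse held in 9, against 10.9%. The count changed with single libraries. It was 23 without SA replicate 1 (8 higher, 15 lower), against 9.53% of all genes. Without P2R+SA replicate 1 it was 24 (7 higher, 17 lower), against 20.4%, a share near that of the members. Without both it was 39 (8 higher, 31 lower), against 24.3% of all genes. With the 6 compared libraries alone it was 3, all higher, against 0.346%. The fit over 12 libraries gives a gene the same spread in all 4 groups. The median SD of a member was 0.35 log2 units in SA and 0.37 in P2R+SA, but 0.13 in CK and 0.19 in P2R. That fit can thus understate the SE and adjusted p of P2R+SA vs SA, here and for the members named below. The shares given for scalings and left-out libraries count both directions together. The median of all genes was -0.097 without both libraries, beside -0.059 with all 12. Whether the change in direction is particular to the members was therefore not tested.

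The 6 members higher in P2R+SA all came from the 18 that lay at -2 or lower in SA vs CK, at -4.73 to -2.39. With the dye present they were 2.21-fold to 5.99-fold higher than in SA, and still at 20.3% to 41.8% of their P2R level. All 6 passed in each alternative fit over the 4 groups, also with any 1 library or the pair above left out, and 3 passed with the compared libraries alone. The largest differences were in A10771, at 2.44 log2 units (SE 0.27, limma adjusted p = 0.000696), and A09304, at 2.12 (SE 0.24, limma adjusted p = 0.000823). Both kept an adjusted p of at most 0.0393 in every alternative run.

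Among all 18 members at -2 or lower in SA vs CK, 14 were higher in P2R+SA than in SA and 4 lower, with a median difference of 0.81. Among the 25 members between -0.8 and -1 in SA vs CK, 8 were higher and 17 lower, with a median of -0.10. This order is partly built in, since the SA mean enters both differences.

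The 4 members called lower in P2R+SA vs SA had smaller differences in SA vs CK than the 6 called higher, at -1.32 to -0.89. A00658, of 3207 bp, read 24.4, 44.9 and 33.3 FPKM in SA and 15.5, 8.53 and 7.95 FPKM in P2R+SA. In the absence of sinapic acid it read 57.1, 65.0 and 65.5 FPKM in CK and 54.0, 47.1 and 48.1 FPKM in P2R. The 4 groups thus formed 4 levels without overlap, with P2R+SA the lowest. Its mean was 3.21-fold higher in SA than in P2R+SA (-1.61 log2 units, SE 0.24, limma adjusted p = 0.00349), and with the compared libraries alone it missed the threshold (0.0794).

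A08373 (2262 bp) read 40.0, 40.3 and 100.1 FPKM in SA and 17.3, 22.6 and 22.3 FPKM in P2R+SA, after 139 ± 19.2 FPKM in CK and 118 ± 16.7 in P2R (SD, n = 3 each). SA replicate 3 was the high one, and no SA library overlapped P2R+SA. The difference was -1.36 log2 units (SE 0.29, limma adjusted p = 0.0196). It lost the threshold without P2R+SA replicate 2 (0.0685) or 3 (0.0574) and with the compared libraries alone (0.164).

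A11041 (1317 bp) read 361, 234 and 237 FPKM in SA and 211, 97.8 and 68.5 FPKM in P2R+SA, and its CK and P2R libraries stood at 509.7 to 606 FPKM. Its difference of -1.27 log2 units passed narrowly (SE 0.32, limma adjusted p = 0.0402) and was lost without any of 11 of the 12 libraries, the exception being P2R+SA replicate 1. The remaining member was A00047 (1086 bp), named because the count was small, at 4.57 ± 0.618 FPKM in SA and 2.65 ± 0.775 in P2R+SA (SD, n = 3 each). Its difference of -0.62 log2 units (SE 0.16, limma adjusted p = 0.0406) was lost without any of 10 of the 12 libraries, the exceptions being replicate 1 of SA and of P2R+SA. Over all 21 alternatives its adjusted p ran from 0.00187 to 0.261.

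**Figure D5:**
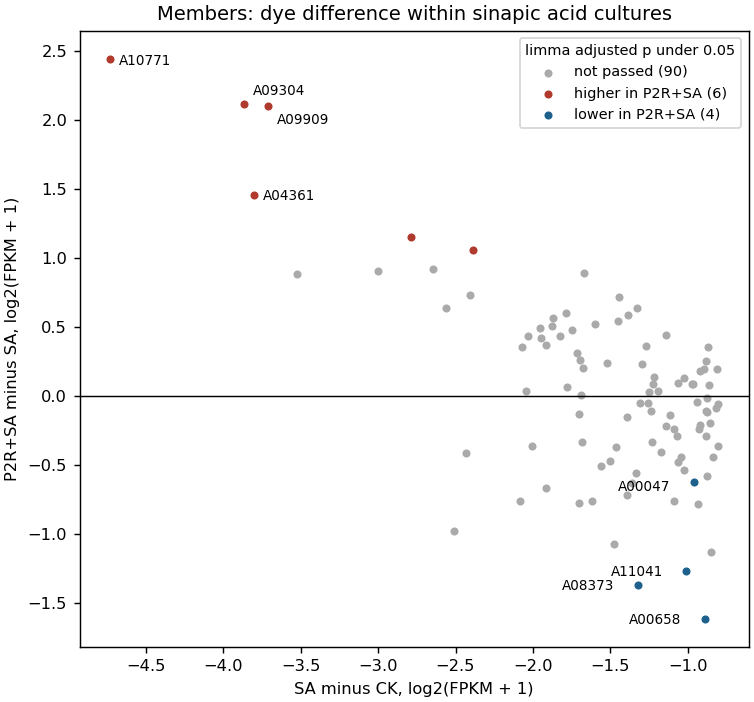
Each point is 1 of the 100 members, with SA minus CK on the horizontal axis and P2R+SA minus SA on the vertical axis, both in log2(FPKM + 1). The SA mean enters both axes, which favours a cloud that slopes downward to the right. The 6 members that passed as higher in P2R+SA (red) lie at the left, and the 4 that passed as lower (blue) lie at the right.

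The interaction asks whether the difference between cultures with and without sinapic acid was the same in the presence and absence of the dye. Its median over the members was -0.04 log2 units, beside 0.009 for all tested genes, with 53 members below 0 and 47 above, and it turned to 0.05 after quantile normalization. It passed for 4 members, against 1.15% of all genes, and 19 had an unadjusted p under 0.05, against 14.6%. All 4 were positive, a direction in which 0.455% of all genes passed, and 0 were negative, against 0.693% of all genes. A positive value means that the fall with sinapic acid was smaller in the presence of the dye. The interaction is the difference between the 2 quantities that the rule limited: low SA values favour a positive sign and low P2R+SA values a negative one. The number was 2 without CK replicate 2 or 3 or P2R replicate 1 or 2, where 0.390% to 0.509% of all genes passed. It was 8 without SA replicate 1 (6 positive, 2 negative), against 1.87%. Without SA replicate 1 and P2R+SA replicate 1 it was 17 (6 positive, 11 negative), against 3.73% of all genes. The shares for left-out libraries count both directions together, so whether the directions are particular to the members was not tested.

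A09909 (384 bp) had the largest interaction. Its libraries read 87.5, 104 and 103 FPKM in CK and 76.2, 62.5 and 92.2 FPKM in P2R. They read 7.11, 9.71 and 3.96 FPKM in SA and 41.9, 29.9 and 24.6 FPKM in P2R+SA. Sinapic acid went with a 14.2-fold lower mean without the dye and a 2.40-fold lower mean with it. The interaction was 2.46 log2 units (SE 0.37, limma adjusted p = 0.0095). In A10771 it was 2.40 (SE 0.39, limma adjusted p = 0.0133), and both passed in every alternative run.

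A09304, at 2.03 (SE 0.34, limma adjusted p = 0.0175), missed the threshold without CK replicate 2 or 3 or P2R replicate 1 or 2. A04361, named because the count was small, was at 1.72 (SE 0.35, limma adjusted p = 0.0421) and missed it in 10 of 20 alternatives. A04361 (336 bp) read 147, 148 and 158 FPKM in CK and 158, 102 and 122 FPKM in P2R. It read 10.9, 13.0 and 6.75 FPKM in SA and 40.3, 21.4 and 28.0 FPKM in P2R+SA. In each of the 4 genes the SA libraries lay below all P2R+SA libraries, which in turn lay below all libraries without sinapic acid.

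The most negative interactions did not pass. They were -1.29 log2 units in A00658 (SE 0.34, limma adjusted p = 0.0961) and -1.27 in A11041 (SE 0.45, limma adjusted p = 0.213). Whether they passed changed with the libraries and weights used, and the reason was not tested. Without P2R+SA replicate 1 both passed, at -1.57 in A00658 (limma adjusted p = 0.022) and -1.72 in A11041 (0.0144). Without SA replicate 1, A00658 passed (limma adjusted p = 0.0385) and A11041 did not (0.285). With both libraries left out the values were -1.78 (limma adjusted p = 0.000926) and -1.51 (0.00363), and with array quality weights both passed (0.00176 and 0.0122).

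Coding length, which the rule did not use, was described without a test. Coding lengths recovered from the values had a median of 1183 bp in the members, with quartiles of 756 and 1827 bp. The 7216 genes in the same mean range had a median of 1365 bp and quartiles of 903 and 2091 bp. The 58 genes raised by sinapic acid only were chosen on the same libraries. Their values in P2R+SA vs SA and in the interaction are thus not free of that choice. The median in P2R+SA vs SA was 0.16. There 4 of the 58 were called higher, against 2.88% of all genes, and 1 lower, against 3.16%. In the interaction 0 passed, against 1.15% of all genes. Whether these genes and the members differ in these values was not tested.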

How the data were processed

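The authors deposited FPKM values per gene. Tools listed in the submitters' processing notes are R 3.2.0, HTSeq, HISAT2 and fastp, without their roles. Aligner settings, genome build, annotation and strand setting: not given in the sources used here. The series-wide table was used, and the 12 single-library files hold the same FPKM values to within 4.9e-06. RNA was extracted with TRIzol, per the labels' protocols.

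Groups and replicate numbers came from sample titles. A gene was tested if 3 or more libraries reached 1 FPKM, which held for 9240 genes. These were fitted with limma 3.58.1 in R 4.3.3 on log2(FPKM + 1). The fit held all 12 libraries, had 8 residual degrees of freedom and an intensity trend, and used no block. Calls need a two-sided Benjamini-Hochberg adjusted p under 0.05 over all genes. The log2(FPKM + 1) scale understates changes of low genes.

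Whole fragments were recovered from the single-library FPKM values for 100.0% of genes (tolerance 1e-06, wider for any gene that needed a search over lengths). They gave depth and coding length, and their sums lay within 22 fragments of the whole-number total behind each library's FPKM. Of the genes with over 50 fragments, 100.0% had lengths that were multiples of 3. The recovery accepted only multiples of a divisor shared by a subset of genes, so this share is no check of the lengths. The recovery and the limma fit were tested on simulated data. The simulation of the fit drew the noise of a gene with the same SD in every group. It is therefore no check of calls where the groups differ in spread, as they do here.

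The members, lists, tests and left-out libraries were chosen with earlier results of these data known. The named IDs are those with the lowest SA vs CK value, the largest values in each direction in P2R+SA vs SA and in the interaction, and the highest CK level, 2 for each. Other IDs were named after their values were seen, where a count was small. Alternatives covered the pseudocount (0.1), filter, scaling, compared libraries, limma-voom, replicate block, library weights, left-out libraries and the limits of the rule.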

Additional observations from a re-analysis of the deposited data

Results flagged for a closer look

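In 4 members the effect of sinapic acid differed between cultures with and without the dye by the test of that difference, the limma interaction. Its log2 value was 2.46 in A09909, 2.40 in A10771, 2.03 in A09304 and 1.72 in A04361, with limma adjusted p of 0.0095, 0.0133, 0.0175 and 0.0421. Over the alternatives the adjusted p ran from 0.000442 to 0.0364 in A09909, from 0.0061 to 0.0445 in A10771, from 0.00107 to 0.0588 in A09304 and from 0.0127 to 0.127 in A04361. These genes were also the 4 lowest of the module in SA vs CK, on which the members were chosen. The dye's difference lies at the header number 36 without sinapic acid and at 48 with it, so the interaction and a dye effect that differs between these numbers cannot be told apart. The further 4 stands in the P2R+SA headers alone, so whatever it marks falls wholly on the interaction and cannot be told apart from it.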

How the results depend on the processing

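The number of members stayed within 71 to 130 over 19 alternatives, and within 89 to 116 with 1 library left out, of which 83 to 100 were among the 100 members; 51 members met the rule in each of the 12 left-out sets. The count of members changed in P2R+SA vs SA, 10 as reported, was 19 after median-of-ratios scaling (6.71% of all genes called), 18 after quantile normalization (6.60%), 25 with array quality weights (21.9%, near the members' share), 3 with the compared libraries alone (0.346%) and 39 without SA replicate 1 and P2R+SA replicate 1 (24.3%). With 1 library left out it was 7 to 24, where 1.60% to 20.4% of all genes were called. The interaction, with 4 members, passed for 10 with array quality weights (5.35% of all genes), for 17 without that pair of libraries (3.73%) and for 2 to 8 with 1 library left out (0.390% to 3.57%), beside 1.15% as reported. Fitting fewer libraries or lowering the weight of some changes the spread that all comparisons share; further causes were not tested. A06948 turned from 0.50 to -0.15 log2 units in P2R+SA vs SA without that pair, and passed in neither. Replicate numbers did not clearly pair the libraries: 3 of 18 same-numbered pairs had deviations that correlated above 0.1, and 3 of 12 libraries correlated best with their own number. The range was -0.322 to 0.542, beside -0.579 to 0.443 in the 36 differently numbered pairs. Between P2R and P2R+SA, replicates 1, 2 and 3 gave 0.393, 0.542 and -0.284, and whether these groups were paired was not tested. With the replicate block the counts were 11 and 3. Scaling moved the median of all genes by over 0.1 log2 units in P2R+SA vs CK, from -0.114 to -0.005 (median-of-ratios) and -0.012 (quantile). Depth limits few members: the lowest value rests on 8 fragments.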

Other observations

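Members were also grouped by their level in basic medium, as a description. The 22 members under 20 FPKM in CK had a median of -1.09 log2 units in SA vs CK and the 28 members from 100 to under 500 FPKM one of -1.61; the log2(FPKM + 1) scale compresses the former. As shares of the CK level kept in SA, the medians were 45.9% and 35.2%, and they were 38.5% in the 44 members between these classes and 40.6% in the 6 members at 500 FPKM and over.

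Among the 100 members, 5 pairs had IDs at most 3 numbers apart, 3 of them with consecutive IDs. How many such pairs other sets of 100 genes would give was not counted. In SA vs CK the consecutive pairs were at -1.03 and -1.14, -1.11 and -1.25, and -0.84 and -0.93 log2 units. The other 2 pairs were at -0.87 and -3.87 (A09302 and A09304) and at -2.79 and -2.08 (A11095 and A11097), named after their values were seen because the pairs are few. The quartiles of all members were -1.8 and -1.0, and the rule kept all of them at -0.8 or lower. In P2R+SA vs SA the consecutive pairs were at -0.53 and -0.22, -0.14 and 0.03, and -0.44 and -0.78. The other 2 pairs were there at -0.01 and 2.12 and at 1.15 and -0.76. No source used here says whether ID order follows the genome.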
